A study of Drosophila melanogaster with 40 samples.

Results

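Binding of the repressor Capicua (Cic) was compared between Drosophila melanogaster embryos exposed to blue light for 1 min and embryos kept without light. The comparison covered all peaks of the authors' final list, 34 on chromosome arm 3R, 25 on 3L, 17 on 2L, 14 on 2R and 13 on X, with 0 left out. Each peak had 1 value in each condition. It rested on 5 of the 40 libraries of the study, 2 immunoprecipitated libraries of the 1 min group and 3 of the no light group. Embryos of both groups had the genotype (UAS-OptoSOS/gal4);(CicsfGFP/gal4), in which the gal4 parts are the maternal driver MTD gal4, so the optogenetic protein was loaded by the mother and not made in a chosen tissue. Both groups carried 1 chromosome with Cic fused to super-folder GFP opposite a gal4 chromosome, and the GFP antibody sees the tagged protein only. They were collected over 3 to 4 h in the dark, handled in red light, fixed for 15 min and picked at early nuclear cycle 14. They differed, as far as the labels say, only in the light. Fixation lasted longer than the pulse, so the interval between the start of the light and the end of crosslinking was not 1 min. Wild type embryos with the tagged protein but no optogenetic parts, (+/+);(CicsfGFP/+), in 3 libraries, served as a second reference that had no light-sensitive protein.

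Cic is an HMG-box protein that holds genes of the early embryo silent. Receptor tyrosine kinases such as Torso at the embryo ends and the EGF receptor at the flanks act through Ras and the kinase ERK, which phosphorylates Cic and so relieves the repression. In OptoSOS embryos blue light draws the catalytic part of SOS, a Ras activator, to the membrane, which turns on ERK throughout the embryo. Because whole embryos were used, a lower share of nuclei with bound Cic and less Cic per nucleus cannot be told apart.

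Each condition was deposited as 1 matrix of z-scores in which the replicates were already combined, so no spread between embryos could be measured and no p-value is given. A z-score is the distance of the coverage from the mean of the noise peaks of that condition, in units of the SD of those noise peaks. Coverage over noise is the read coverage recovered from the z-scores and divided by the noise mean, so that 1 is the noise level. No source used here says how the authors chose the noise peaks, so ratios between conditions rest on a reference of unknown definition. Unless another window is named, a value is the mean within 250 bp of the window centre. Intervals of a median are 95% order-statistic intervals over peaks. Intervals of a ratio at 1 peak are 95% exact intervals on read equivalents, read bases divided by the 74 bp read length, and cover counting error only. With each step of the z-scores read as 1 read base, the median peak held 221 read equivalents in no light and 193 after 1 min. The noise mean was 4.33 and 2.83 reads, so on that reading the 1 min profiles were the shallower.

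Cic signal at its sites was not generally lower after 1 min of light. The median z-score was 8.69 in no light and 9.85 after 1 min, and the difference per peak had a median of 0.639 (0.355 to 0.926) with a range from -4.79 to 5.91. Measured as coverage over noise the 1 min level was a median 1.26 times the no light level (1.24 to 1.31), higher at 97 peaks and lower at 6. Beyond counting error 65 peaks (63.1%) were higher and 1 (0.971%) was lower. At least 1.5-fold higher were 17 peaks (16.5%) and at least 1.5-fold lower was 1 peak (0.971%). The order of the sites was largely kept, with a Spearman rho of 0.959 over all peaks, which share libraries within each condition, and 8 of the 10 highest no light peaks were among the 10 highest after 1 min.

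The higher overall level depended on what the signal was set against. Window edges, 750 to 1000 bp from the centre, were themselves 1.19 times higher after 1 min (1.11 to 1.28). With the pooled edges set equal the median ratio within 250 bp was 1.06 (1.03 to 1.10), with 24 peaks higher and 3 lower beyond counting error. With the total coverage of the matrices set equal it was 1.01 (0.993 to 1.05), with 15 higher and 5 lower, so the direction over all peaks was not held by every scaling. The z-score and the ratio also parted at 27 peaks, which had a lower z-score but a higher coverage over noise after 1 min. Those peaks were strong ones, with a median no light z-score of 10.9 against 8.15 for the 70 peaks higher by both measures. The SD of the noise relative to its mean was 0.907 after 1 min and 0.738 in no light, and a z-score falls as that quotient grows. The remaining 6 peaks were lower by both measures.

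**Figure D1:**
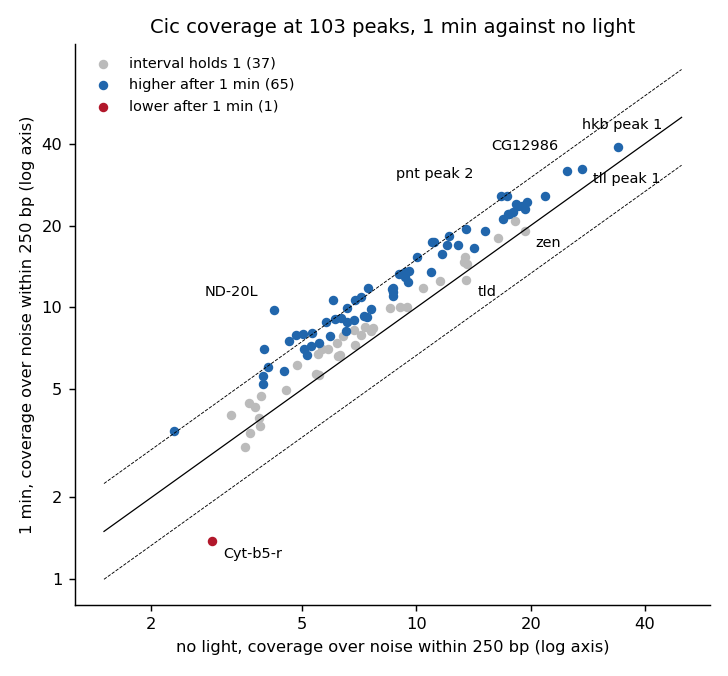
Coverage over noise within 250 bp of the window centre in no light (x, log axis) and after 1 min of light (y, log axis), 1 point per peak. The solid line marks equal levels and dashed lines mark 1.5-fold. The points of 97 peaks lie above equality and those of 6 below, Cyt-b5-r lies below the lower dashed line and ND-20L stands farthest above the upper one.

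By the median of the ratios per peak, the profiles differed most at the inner shoulders, beside the summit, with intervals that overlap those of the neighbouring zones. Within 50 bp of the centre the ratio of 1 min to no light was a median 1.22 (1.17 to 1.248). At the inner shoulders, 100 to 250 bp away on both sides, it was 1.28 (1.24 to 1.35), and at the outer shoulders, 250 to 500 bp away, 1.20 (1.17 to 1.29). From 500 to 750 bp it was 1.16 (1.05 to 1.22). As median levels, the summit stood at 13.2 times the noise in no light and 17.6 times after 1 min, and the inner shoulders at 5.16 and 6.77 times. Those median levels did not rise by a larger factor at the shoulders than at the summit, so the order of the zones depended on the summary used. As coverage over noise, the summit was higher at 91 peaks and lower at 12, and the inner shoulders at 97 and 6. A z-score also depends on the noise SD relative to its mean, which was 1.23 times as large after 1 min. In z-scores the median difference at the summit was 0.150 (-0.684 to 0.572), higher at 54 peaks and lower at 49. At the inner shoulders it was 0.538 (0.359 to 0.944) and higher at 78. At 30 peaks the z-score was lower at the summit and higher at the shoulders, and at 6 the reverse held.

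**Figure D2:**
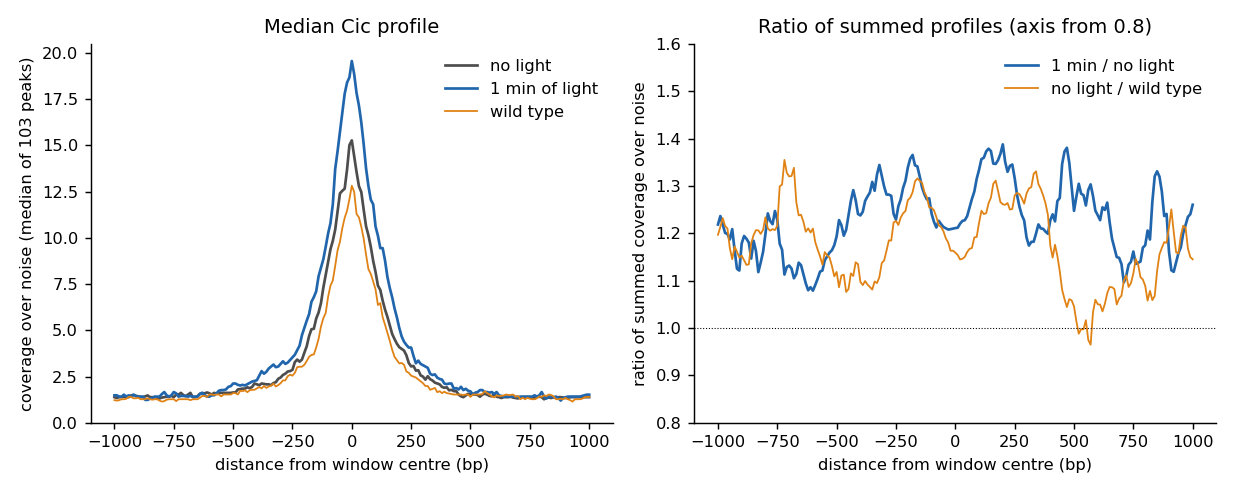
Left, median coverage over noise (y) by distance from the window centre in bp (x) for no light, 1 min and wild type. Right, the ratio of the profiles summed over all peaks at each distance, for 1 min over no light and no light over wild type. The 1 min curve lies above no light at the summit and shoulders, and its ratio dips at the centre relative to the shoulders.

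In the summit divided by the inner shoulders of the same peak, the noise mean used as a divisor and the depth cancel. Background was not subtracted from either zone, so a different background or height above it also moves this quotient. That quotient had a median of 2.51 in no light and 2.32 after 1 min. Per peak the 1 min quotient was a median 0.946 times the no light quotient (0.902 to 0.970), below 1 at 71 peaks and above 1 at 32, ranging from 0.548 to 1.48. The width at 50% of the summit height was 220 bp in no light and 240 bp after 1 min, with a median change of 10 bp (0 to 20), wider at 61 peaks, narrower at 30 and the same at 12. At single peaks the shape was poorly determined. The interval of the shape change lay below 1 at 5 peaks and above 1 at 0, where counting error alone would put about 5% of peaks outside in either direction. The highest point lay at the window centre at 96 peaks and elsewhere at 7, in both conditions. Centre positions are not given, but by the best match of shape 85 of the 1 min profiles lay within 50 bp of no light. Shifting the 1 min profiles to the best match with no light gave 0.930, lower at 73 peaks, which is about as low as with the windows as deposited.

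A flattening of similar size was present between no light and wild type. No light against wild type had a median shape change of 0.910 (0.867 to 0.946), lower at 68 peaks, and its ratio was 1.13 (1.09 to 1.20) at the summit and 1.21 (1.17 to 1.30) at the inner shoulders. That comparison had 9 peaks at least 1.5-fold higher (8.74%) and 1 lower (0.971%), and 48 higher (46.6%) and 3 lower (2.91%) beyond counting error. No light time is labelled for wild type, which has no light-sensitive protein, and whether it was kept dark is not stated in the labels. The no light libraries enter both comparisons. These 2 groups differ in genotype, with no light pulse labelled for either, and were apart by a median ratio of 1.19 (1.13 to 1.24). The ratio of 1 min over no light was 1.26. At the edges the median ratio was 1.06 (1.03 to 1.12) for no light over wild type and 1.19 for 1 min over no light.

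**Figure D3:**
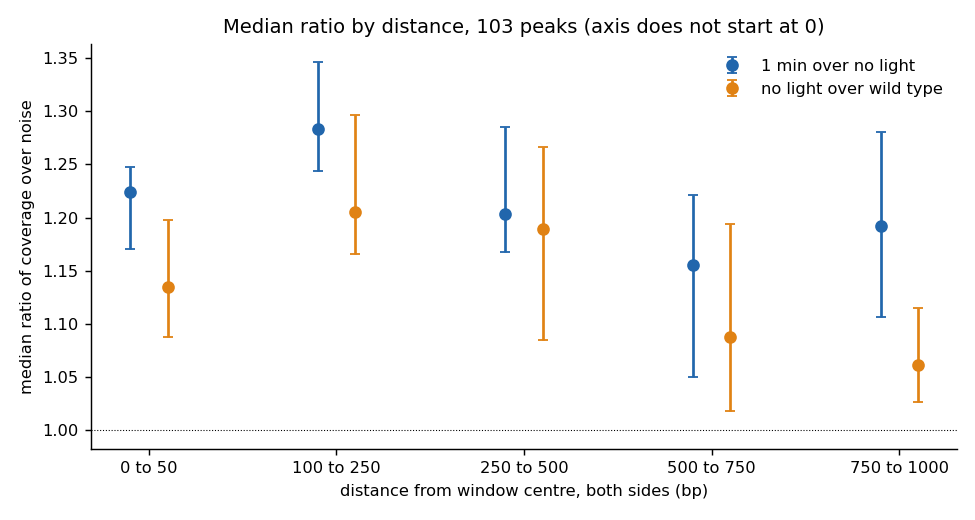
Median ratio of coverage over noise (y) in zones of distance from the window centre (x), for 1 min over no light and for no light over wild type, with 95% order-statistic intervals over all peaks. Both comparisons are higher at the inner shoulders than at the summit, 1.28 against 1.22 and 1.21 against 1.13.

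Known Cic targets carried 12 peaks at 6 of 11 listed genes, which are tll, hkb, ind, aos, pnt and zen. Their median ratio was 1.22, beside 1.26 over all peaks of the study. Beyond counting error 9 of the 12 were higher and 0 lower, beside 63.1% and 0.971% of all peaks. The summit to shoulder quotient was lower at 10 and higher at 2, beside 71 and 32 over all peaks. The highest site of all was hkb peak 1, a distal intergenic site of the gene for a zinc-finger repressor of the embryo ends (3R, 4348112 to 4348940, dm6). Its z-score was 44.7 in no light and 41.8 after 1 min, and its coverage over noise was 33.9 and 38.9, a ratio of 1.15 (1.04 to 1.26). At its summit the ratio was 1.06 and at its inner shoulders 1.20. On 1 side those shoulders take in part of the valley to a second summit, 310 bp from the centre. The promoter peak of tll, which encodes a nuclear receptor that specifies the embryo ends (3R, 30851662 to 30852585), had coverage over noise of 27.3 and 32.4, a ratio of 1.19 (1.07 to 1.32). With pooled edges set equal both sites were level with no light, at 0.959 (0.872 to 1.06) and 0.994 (0.895 to 1.10).

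Among the other peaks of these genes, the intronic site of ind, which encodes a homeobox factor of the intermediate neuroectoderm (3L, 15045121 to 15045495), had coverage over noise of 12 in no light and 17 after 1 min. That is a ratio of 1.41 (1.21 to 1.64), and 1.18 (1.01 to 1.37) with pooled edges set equal. The weak distal site tll peak 3 had 4.06 and 6.04, a ratio of 1.49 (1.15 to 1.94), and stood at 5.18 in wild type. Both aos sites, of the gene for a secreted inhibitor of the EGF receptor, stayed within counting error, with intervals of the ratio from 0.989 to 1.57 and from 0.846 to 1.31.

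The 3 sites of pnt, which encodes an ETS activator used downstream of ERK, did not move alike. The promoter site, peak 1 (3R, 23314231 to 23314688), had z-scores of 28.3 in no light and 27.3 after 1 min, and its coverage over noise was 21.8 and 25.8, a ratio of 1.18 (1.05 to 1.33). The intronic site peak 2, 1030 bp away by the no light centres (3R, 23315058 to 23315760), had z-scores of 21.3 and 27.2, the widest gain of any peak, and a ratio of 1.54 (1.35 to 1.74). With pooled edges set equal these were 0.986 (0.876 to 1.11) and 1.28 (1.13 to 1.46), so the interval of peak 2 lay above that of peak 1. The windows of these sites overlap and matched exactly where they did, so they share a depth and a scale. At peak 2 the gain was 1.38 at the summit and 1.69 at the inner shoulders. A second summit lay in or beside those shoulders, 270 bp from the centre in no light and 230 bp after 1 min. No light against wild type also differed there, with a ratio of 1.62 at peak 2 and 1.49 at peak 1. Peak 3, a weaker intronic site, had 5.06 in no light and 7.04 after 1 min, a ratio of 1.39 (1.09 to 1.76).

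Gap, terminal and head genes had 10 peaks at 6 of 17 listed genes, of which 8 were higher beyond counting error and 0 lower, beside 63.1% and 0.971% of all peaks, with a median ratio of 1.22. The fkh peak, at a forkhead gene needed at both gut ends (3R, 28586091 to 28586750), had coverage over noise of 18.3 and 24.1, a ratio of 1.31 (1.16 to 1.49). The 2 srp peaks, at the gene of an endodermal GATA factor, had coverage over noise of 19.5 and 8.67 in no light and 24.5 and 11 after 1 min, both higher beyond counting error. The head homeobox gene hbn went the other way in shape. Its summit was 1.18 times and its inner shoulders 0.882 times the no light level, a shape change of 1.34 (0.884 to 2.03).

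Dorsoventral genes had 14 peaks at 13 of 23 listed genes, with ratios from 0.930 to 1.53, 9 peaks higher beyond counting error and 0 lower. The share that was higher was close to the 63.1% of all peaks. They held sites near both ends of the range. At pnr, which encodes a GATA factor of the dorsal ectoderm (3R, 16034213 to 16034559), the promoter site had coverage over noise of 7.15 in no light and 10.9 after 1 min, a ratio of 1.53 (1.26 to 1.86). The gain there was larger at the summit, 1.79, than at the shoulders, 1.28. At wntD, a Wnt family gene active in the blastoderm (3R, 13293257 to 13293787), the summit was 36.4 and 38.7 and the inner shoulders 11.1 and 16.3. Its shape change of 0.726 (0.549 to 0.959) was 1 of the 5 with an interval below 1. The BMP ligand gene dpp had the same order at peak 1 (2L, 2456342 to 2457393), with 1.02 at the summit and 1.28 at the shoulders, as did the T-box gene Doc2 (3L, 9028911 to 9029715), with 1.16 and 1.42. The mesodermal repressor gene sna had a ratio of 1.32 (1.14 to 1.53) and the FGF ligand gene ths one of 1.26 (1.09 to 1.45).

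The lowest ratios among strong sites were at zen and tld, both genes of the dorsal side. At zen, whose homeobox product specifies the amnioserosa (3R, 6755319 to 6755883), coverage over noise was 19.3 in no light and 19.2 after 1 min, a ratio of 0.992 (0.869 to 1.13). At tld, whose protease releases BMP ligands from their antagonist (3R, 24749130 to 24749622), it was 13.5 and 12.6, a ratio of 0.930 (0.789 to 1.09). Neither differed from no light beyond counting error on the noise scale. With pooled edges set equal both did, at 0.830 (0.727 to 0.947) and 0.778 (0.660 to 0.912). In wild type their coverage over noise was 15.3 and 8.98, below both OptoSOS groups. Their z-scores were 24.8 and 17 in no light, 20.0 and 12.8 after 1 min, and 20.0 and 11.1 in wild type, each on the noise SD of its own condition. The neighbouring gene zen2 (3R, 6744624 to 6745012) had a ratio of 1.10 (0.940 to 1.28).

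Of the receptor tyrosine kinase and ERK pathway, 7 of 29 listed genes had 11 peaks, of which 5 were higher beyond counting error, a smaller share than the 63.1% of all peaks, and 0 lower. Their median ratio was 1.23. RasGAP1, named below as the gene of an inhibitor of Ras, was not on that list. All 3 pnt peaks were among those 5, together with ths and cic peak 2. The latter lies in an intron of the Cic gene itself and had a ratio of 1.37 (1.09 to 1.74). The centres of the cic pair were 270 bp farther apart after 1 min, so that ratio was not read at 1 position. The receptor gene Egfr (2R, 21523540 to 21524163) had z-scores of 17.1 and 14.8 and a ratio of 1.06 (0.910 to 1.24). Mkp3, which encodes a phosphatase of ERK (3L, 19082968 to 19083540), had 1.14 (0.954 to 1.35), and sty, the gene of the feedback inhibitor Sprouty, had 1.23 (0.965 to 1.55). Pair-rule, Hox and neurogenic genes had 6 peaks at 5 of 17 listed genes, with a median ratio of 1.26 and 3 peaks higher beyond counting error, where all peaks had 63.1%. A lower summit to shoulder quotient was found at 1 of these 6, where all peaks had 71 lower and 32 higher. It was at salm, a zinc-finger homeotic gene, where the shape change was 0.619 (0.380 to 1.01). The 63 peaks at genes of no list had a median ratio of 1.30, with 41 higher and 1 lower beyond counting error. The interval of that median, 1.24 to 1.35, overlapped those of all 5 lists. Lists share genes, and no difference between them was tested.

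The 17 peaks at least 1.5-fold higher were mostly weak ones, 12 of them below the median no light z-score. The largest ratio was at a distal intergenic peak assigned to ND-20L, a gene named for a subunit of respiratory complex I (3R, 29516918 to 29517170). Its coverage over noise was 4.20 in no light and 9.76 after 1 min, a ratio of 2.32 (1.85 to 2.94), and it was at a z-score of 4.34 in no light and 4.43 in wild type. The gain was 1.75 at the summit and 3.10 at the inner shoulders, with a width at 50% height of 140 bp in no light and 260 bp after 1 min. It was the only peak at least 1.5-fold higher with pooled edges set equal, at 1.94 (1.55 to 2.46). The next were promoter peaks of trn, which encodes a leucine-rich repeat membrane protein (3L, 13114179 to 13114412), and kirre, which encodes an adhesion protein of muscle founder cells (X, 2988639 to 2988894). Coverage over noise at trn was 3.97 and 7.04, a ratio of 1.77 (1.38 to 2.29). At kirre it was 6.02 and 10.6, a ratio of 1.77 (1.44 to 2.16).

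Further peaks of that kind were Shroom, the gene of an actin regulator of apical cell shape, with a ratio of 1.63 (1.28 to 2.07), and RasGAP1, the gene of an inhibitor of Ras, with 1.57 (1.30 to 1.90). The Sox family gene Sox21b had 1.53 (1.30 to 1.80), and salm had 1.52 (1.23 to 1.89). Among strong sites fend peak 1 had 1.58 (1.35 to 1.84) and CG15480 had 1.56 (1.34 to 1.82). At 5 of the 17 the no light level was below that of wild type. The largest such gap was at CG42807 (2R, 13566548 to 13567083), where the z-score was 12 in wild type, 5.45 in no light and 7.72 after 1 min.

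The single peak lower beyond counting error, an intronic site of Cyt-b5-r (2L, 16785757 to 16785983), had an unusual form. Its coverage over noise was 2.89 in no light and 1.38 after 1 min, a ratio of 0.477 (0.300 to 0.748), and at the summit 9.14 and 3.47. Its width at 50% height of 60 bp in no light and 70 bp after 1 min was the narrowest of all peaks and about the read length, where the next narrowest, srp peak 2, had 90 bp in both. It rested on 86.3 and 26.9 read equivalents. In wild type and after 5 min of light it was again at z-scores of 2.24 and 2.34, against 2.57 in no light and 0.419 after 1 min.

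**Figure D4:**
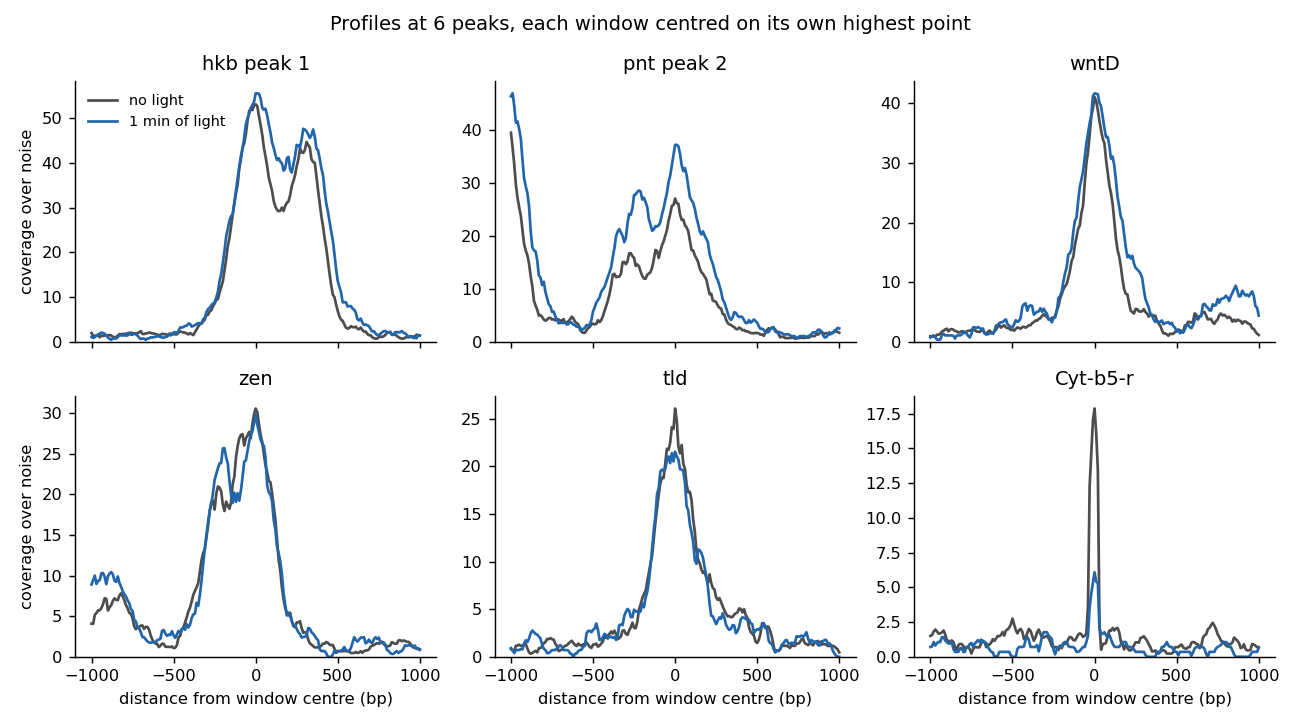
Coverage over noise (y) by distance from the window centre in bp (x) in no light and after 1 min at 6 peaks. At hkb peak 1 the pair of summits persists, pnt peak 2 is higher at both of its summits, with peak 1 at the left edge of its window, wntD is higher beside its summit than at it (1.47 against 1.06), zen at 200 bp to the left is 18.7 in no light and 25.7 after 1 min, tld is lower at its centre, and Cyt-b5-r is a spike of 60 to 70 bp.

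Shape changes at single sites ran in both directions. The largest flattening was at the promoter of CG15480 (2L, 13225083 to 13225898), with a ratio of 1.11 at the summit and 2.03 at the inner shoulders and a shape change of 0.548 (0.387 to 0.777). By the best match of shape its windows lay 170 bp apart in the 2 conditions, and with the profiles matched the change was 0.790. CG17300 had a shape change of 0.645 (0.463 to 0.900), ND-20L 0.564 (0.339 to 0.939) and CG32719 0.657 (0.438 to 0.984). Sharpening was largest at CG7029, with 1.54 at the summit and 1.04 at the shoulders and a shape change of 1.48 (0.986 to 2.23), and CG16813 and pnr also had values above 1, 1.31 (0.959 to 1.78) and 1.4 (0.911 to 2.16).

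The flattening was not spread evenly over chromosome arms or peak strengths. On the X chromosome 12 of 13 peaks had a lower quotient after 1 min, with a median shape change of 0.774, beside 59 of 90 and 0.956 on the other arms. There the median ratio was 1.22 at the summit and 1.5 at the inner shoulders. Examples were fend peaks 1 and 2, with 0.772 and 0.749, disco, a zinc-finger gene, with 0.720, and sisA, an X-linked counting gene of sex determination, with 0.744. With profiles matched the X median was 0.830, again lower at 12 of 13. In no light against wild type the X peaks had a median of 1.01 and 6 of 13 lower, and 1 min against wild type gave 0.874 on the X and 0.826 elsewhere. In 4 bins of the deposited fold enrichment in wild type, from the lowest to the highest, 13 of 26, 19 of 26, 14 of 25 and 25 of 26 peaks had a lower quotient. The medians were 0.995, 0.949, 0.956 and 0.898. With profiles matched 15, 19, 17 and 22 were lower, with medians of 0.982, 0.959, 0.909 and 0.898. No light against wild type had 16, 14, 16 and 22 lower, so the strongest bin had most of its peaks flatter there too. These splits were seen in the data first and were not tested.

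**Figure D5:**
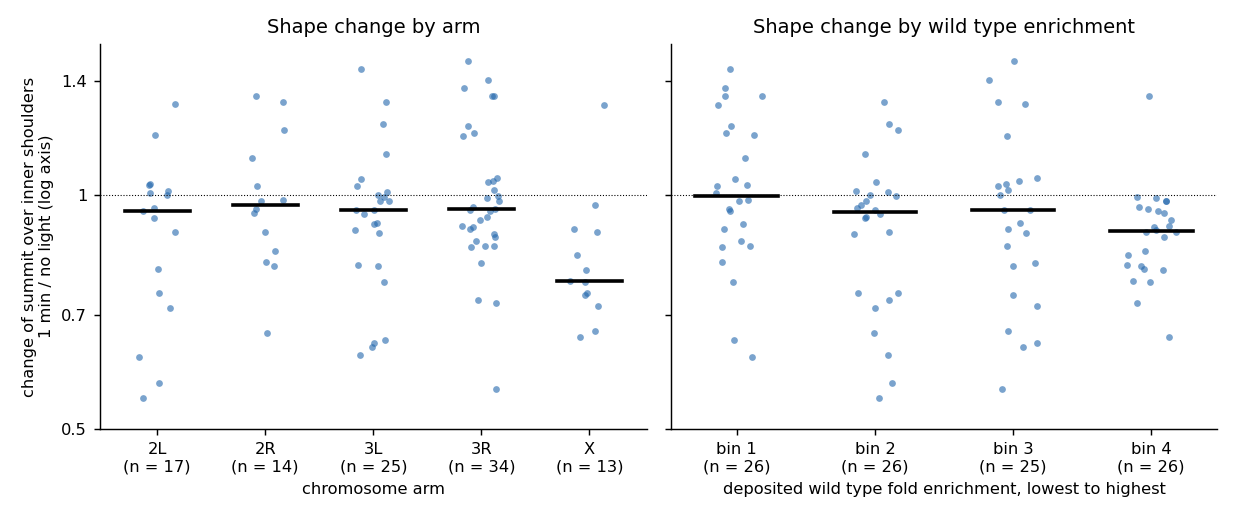
Shape change, the summit to inner shoulder quotient after 1 min divided by that in no light (y), 1 point per peak, by chromosome arm and by bin of the deposited wild type fold enrichment, bin 1 lowest (x). Bars mark medians, and values below 1 are flatter profiles after 1 min. The X peaks lie lowest, at a median of 0.774, and 25 of 26 peaks of the strongest bin lie below 1.

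By place, the level ratio had a median of 1.24 at 27 promoter peaks, 1.30 at 41 intronic peaks, 1.28 at 14 distal intergenic peaks, 1.21 at 4 downstream peaks and 1.31 at 14 peaks with no class. The 2 exonic peaks, zen and Or67d, had 0.992 and 1.02, and the 5′ UTR peak had 1.23. By arm the median ran from 1.21 on 2L to 1.35 on the X. Peaks within 1000 bp of a start site had 1.246 and those farther away 1.30. Peaks with the untagged level above its median had 1.26 and the others 1.28.

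Several sites had more than 1 summit. A second summit at least 50% as high as the first, parted from it by a valley of at most 85% of its own height, lay within 500 bp at 18 peaks in no light and 28 after 1 min. It was found in both at 13 peaks and at the same place within 50 bp at 7, and the 1 min profiles had fewer reads. At hkb peak 1 the second summit lay 310 bp from the first in both conditions. Its coverage over noise was 43.5 in no light and 46.8 after 1 min, the first summit was 52.2 and 54.7, and the valley between them 29.5 and 39.5. At pnt peak 2 the second summit was 16.2 in no light and 28.2 after 1 min. Centres of the pnt, srp and hkb pairs of neighbouring peaks kept their distance within 10 bp. The Rpn12R pair was 40 bp farther apart after 1 min, the fend pair 80 bp and the cic pair 270 bp, so that values of cic peaks 1 and 2 in the 2 conditions were not read at 1 position.

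After 5 min of light the same sites were far lower, which gives a scale for the differences at 1 min. The median coverage over noise at 5 min was 0.494 times the no light level, with 0.429 at the summit, 0.540 at the inner shoulders and 0.915 at the edges, and 96 peaks (93.2%) were lower beyond counting error, among them every peak of the 5 gene lists. This comparison shares its no light matrix with the one at 1 min. The width at 50% height was a median 30 bp narrower at 5 min and 10 bp wider at 1 min. The summit to shoulder quotient was lower in both, at 0.809 and 0.946 times the no light value. At tll peak 1 coverage over noise was 27.3 in no light, 32.4 after 1 min and 5.22 after 5 min, and at hkb peak 1 it was 33.9, 38.9 and 14.9. At pnt peak 1 it was 21.8, 25.8 and 18.8, and at pnt peak 2 it was 16.7, 25.7 and 10.5. At zen it was 19.3, 19.2 and 7.22, and at tld 13.5, 12.6 and 4.43. The first 4 of these sites were thus higher after 1 min and lower after 5 min than in no light on the noise scale. With pooled edges set equal, only pnt peak 2 of these 4 was higher after 1 min beyond counting error.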

How the data were processed

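The submitters' processing notes name dm6 as the genome build and list Trim Galore, BWA 0.7.17-r1188, SAMtools, ChIPseeker and MACS2. Per the file headers, MACS 2.1.2 made 468 calls at a q-value threshold of 0.01, with the wild type libraries pooled and set against the pooled untagged ones. The authors deposited for each peak a fold enrichment ratio, a pileup signal, −log10 p and q values and a score of 10 times the −log10 q. For the filter behind the final 103 peaks no source used here gives a rule. The z-score matrices were deposited with 201 windows of 10 bp per peak, depth-scaled and set against noise peaks by the authors, replicates combined. Sequencing depth per library is unknown.

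All z-scores lay on whole steps, read as 1 read base per window, which gave coverage with a true zero. Isolated stretches between zero windows held 74 or 75 steps, about 1 read, at 4 of 4 in the 1 min matrix. The same held at 2 of 2 in wild type and 2 of 2 at 5 min, but at 0 of 1 in no light. The unit was thus not borne out for no light, and read equivalents and counting intervals rest on it. Neighbouring windows matched exactly in 6 of 7 pairs, with matrix columns taken in peak list order. Reads without molecular identifiers are not independent molecules, so intervals cover counting error only. Steps, shifts and intervals were tested on simulated data. Python 3.11.15, numpy 2.4.6, scipy 1.17.1, pandas 2.3.3 and matplotlib 3.10.9 were used. RefSeq held 85 of 88 symbols.

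Named peaks were those at listed genes, the 10 highest in no light, and the 5 most extreme in each direction by z difference, ratio and shape among peaks at or above the median no light signal. Peaks at least 1.5-fold higher or lower, Cyt-b5-r, X chromosome examples and peaks with a shape interval off 1 were named after their values were seen. Members, lists and rules were chosen with earlier results of these data known. Alternatives changed the window, scaling, threshold (1.25-fold and 2-fold), alignment, peak subset and reference. Inputs, the untagged signal, 30 min and active Torso were not used here.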

Additional observations from a re-analysis of the deposited data

How the results depend on the processing

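Of 122 recomputed values, 64 stayed within their limits, 51 moved and 7 turned direction. The cause was not tested. The 122 include values of 1 min against wild type and of no light against wild type, which are other comparisons. The maximum of the window gave a median z difference of -0.264 (-0.655 to 0.799), opposite in sign to that of the mean, and a ratio of 1.21. A 100 bp window gave 0.132 and 1.22. At the summit the z difference was -0.167 with windows aligned by shape and -0.200 in peaks at or above the median no light z-score, where 5 peaks were 1.5-fold higher and 0 lower, and 38 higher and 0 lower beyond counting error. Peaks at or above the median fold enrichment gave 7, 0, 38 and 0, in part because fewer peaks were counted. A 500 bp window left 9 peaks 1.5-fold higher, the lower fold threshold given with the methods gave 56 and the 2-fold threshold 1. With total coverage set equal, ratios were 1.01 within 250 bp, 0.982 at the summit, 1.03 and 0.966 at inner and outer shoulders and 0.956 at the edges, with 1 peak 1.5-fold higher and 15 higher and 5 lower beyond counting error. With each window's own edges set equal they were 1.11, 1.04, 1.12 and 1.03, with 18 peaks 1.5-fold higher and 4 lower, and 35 higher and 21 lower beyond counting error in intervals that leave out the counting error of the edges. With pooled edges set equal, a scaling chosen after seeing the data, they were 1.06, 1.02, 1.07 and 1.01, and 0.997 at the edges by construction, with 1 peak 1.5-fold higher and 24 higher and 3 lower beyond counting error. Wild type in place of no light gave a z difference of 2.16 (2.34 at the summit, 1.78 at the inner shoulders) and ratios of 1.48, 1.42, 1.64 and 1.44. Its shape change was 0.828 and its width change 30 bp. It had 51 peaks 1.5-fold higher and 1 lower, and 79 higher and 2 lower beyond counting error. No light against wild type gave 1.30, 1.47 and 1.15 for z, and ratios of 1.19, 1.13 and 1.21 with 1.06 at the edges. That comparison had 9 peaks 1.5-fold higher and 1 lower, and 48 higher and 3 lower beyond counting error. The shape change stayed below 1 under the alternatives run. No paired analysis was possible because the matrices combine the replicates, and for the same reason no replicate could be left out. The 1 min matrix had 2 libraries and a noise mean of 2.83 reads, which limits its weak peaks and edges.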
